A study of Mus musculus with 8 samples.

Results

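Heterotrimeric G proteins, built of an alpha, a beta and a gamma subunit, together with the regulators of G protein signalling (RGS proteins), were represented by 118 of the 45037 probe sets on the arrays and by 48 of 18193 genes. The members were all probe sets annotated with a single gene symbol of the Gnai, Gnao, Gnas, Gnal, Gnaq, Gnaz or numbered Gna alpha subunits, the beta subunits Gnb1 to Gnb5, the Gng gamma subunits or the numbered Rgs genes. They comprised 13 alpha, 5 beta, 11 gamma and 19 RGS genes. The choice used symbols and no measured value.

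Expression was measured with Affymetrix arrays in punches of 500 µm diameter from the centre of the striatum in 300 µm slices of newborn BALB/c mice at postnatal day 0. The 8 arrays held RNA of 4 Ctip2 null mutants (Ctip2-/-), 1 Ctip2 heterozygote and 3 wild type animals, 1 animal each. Ctip2 (Bcl11b) is a transcriptional regulator made in the striatum's principal output cells, the medium spiny neurons. Neither the deleted stretch of the gene nor a tissue limit of the mutation is stated, the punches hold every cell type of the region, and precision rests on the small number of arrays.

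An activated receptor makes the alpha subunit exchange GDP for GTP, and the alpha subunit and the beta-gamma pair then act on separate effectors. Gs-type subunits stimulate adenylyl cyclase, Gi-type subunits inhibit it, and Gq-type subunits activate phospholipase C beta. RGS proteins speed the hydrolysis of GTP and so shorten the signal. In the adult striatum D1 dopamine receptors couple to cyclic AMP through Golf, which is made of the alpha subunit encoded by Gnal with the gamma subunit encoded by Gng7, and the RGS9 protein with its partner Gnb5 limits signalling through Gi-coupled receptors.

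All levels below are log2 values as deposited, and all differences are null minus wild type on that scale. Bcl11b was lower in null striatum on its 4 probe sets, with 11.18 ± 0.20 (SD, n = 4) in null and 12.29 ± 0.25 (SD, n = 3) in wild type arrays on the brightest (limma adjusted p = 0.00911). Its heterozygote value, 12.43, stood at the wild type level. Of the 11 measured markers of medium spiny neurons, 3 fell, 0 rose and 8 did not pass, and the levels summed over the list were 109 to 111 in null, 118 in the heterozygote and 110 to 113 in wild type arrays. At an unadjusted limma p under 0.05 the list went both ways, with 3 lower and 3 higher. The higher ones were Isl1, Meis2 and Ebf1, with differences of 0.69, 0.57 and 0.51, and the median difference of the list was 0.14. Of the 3 that fell, Pde10a alone passed without wild type 2 (adjusted p = 0.0983 for Ppp1r1b and 0.145 for Drd1), null 1 (0.0585 and 0.0813) or null 2 (0.0791 and 0.134), and Drd1 did not pass without wild type 1 (0.0573) or null 3 (0.0950). The SD over all probe sets of an array ranged from 1.90 to 2.05 in null, was 2.06 in the heterozygote and ranged from 1.84 to 1.97 in wild type arrays. Ttr, a choroid plexus gene, ranged from 7.11 to 13.44 in null and from 9.38 to 13.34 in wild type arrays and read 7.44 in the heterozygote.

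Among the members, 10 probe sets of 5 genes rose in null striatum and 2 probe sets of 2 genes fell. The genes that rose were the alpha subunit genes Gnaq, Gnai1 and Gnai2, the gamma subunit gene Gng2 and the regulator Rgs8, and those that fell were Gng7 and Gnal. The test was limma's moderated test, adjusted by Benjamini-Hochberg over all 45037 probe sets at a threshold of 0.05. Over all probe sets 2.32% were called, 1.87% higher and 0.453% lower, which is the background for the 10 and 2 of 118. The null and wild type arrays did not overlap on 26 member probe sets where null was higher and on 18 where null was lower, with a background of 16.5% of all probe sets, 7.7% with null higher and 8.85% with null lower. The median difference was -0.06 over the members and -0.08 over all probe sets. At an unadjusted p under 0.05, 26 member probe sets were higher and 19 lower, against 4899 and 3937 of all 45037 probe sets, and by brightest probe set 2244 and 1797 of all 18193 genes were. Counted by the brightest probe set of each gene, 4 of 48 members rose and 2 fell, against 3.06% of all genes, 2.38% higher and 0.676% lower. On those probe sets the groups did not overlap for 13 members with null higher and 8 with null lower, against 18.2% of all genes, 8.59% and 9.62% by direction. Leaving out single arrays gave between 0 and 14 higher and between 1 and 3 lower members. In those limma fits 0 rose without wild type 2, wild type 3 or null 2, with 22, 24 and 22 higher at an unadjusted p under 0.05, 1 rose without null 1 (a Gnaq probe set) and 6 without null 3, while Gng7 alone fell without wild type 2, wild type 3 or null 2.

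**Figure D1:**
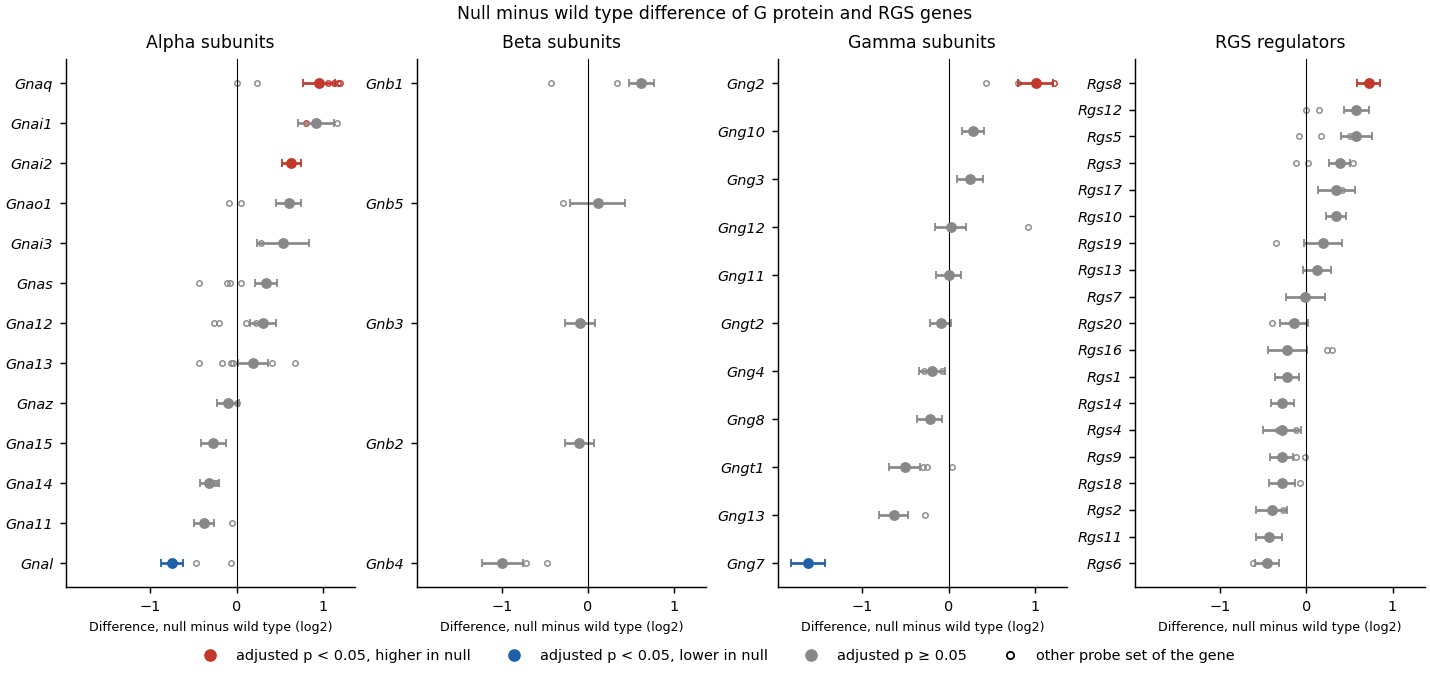
Log2 difference, null minus wild type, for each of the 48 genes, in panels for alpha, beta, gamma and RGS genes. Filled points are the brightest probe set with its standard error, open points the gene's other probe sets, and colour marks an adjusted p under 0.05. Gng7 lies farthest to the left at -1.63, and Gnaq, Gng2, Gnai2 and Rgs8 are the genes whose brightest probe set passed on the right.

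Gng7 and Gnal, the genes of the Golf gamma and alpha subunits, fell. Gng7, measured by 1 probe set, had the largest difference of any member. It read 8.34, 7.80, 8.28 and 8.61 in the 4 null arrays, 9.98 in the heterozygote and 10.12, 9.91 and 9.64 in the 3 wild type arrays. Every null array lay below every wild type array, and the heterozygote lay among the wild type arrays. The difference was -1.63 ± 0.20 (SE), a 3.10-fold lower level in null striatum (limma adjusted p = 0.00444). The adjusted p stayed at or under 0.0446 in every alternative that gave one, and at or under 0.0224 with any single array left out. In RNA from whole punches, fewer cells of a type and less RNA per cell cannot be told apart.

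Gnal, which encodes the alpha subunit of Golf, was measured by 3 probe sets. The brightest read 10.42, 10.15, 10.18 and 10.39 in null, 11.08 in the heterozygote and 11.09, 11.09 and 10.91 in wild type arrays. Null and wild type arrays were again apart, with the heterozygote at the wild type level. The difference was -0.75 ± 0.13 (SE), 1.68-fold lower in null striatum (limma adjusted p = 0.0179). The call was lost without wild type 2 (adjusted p = 0.0751), wild type 3 (0.0572) or null 2 (0.0693). It was also lost with array SD as a covariate (0.0923) and without wild type 1 and null 2 together (0.102). The next probe set had no overlap between the groups either, at -0.47 ± 0.16 (SE, adjusted p = 0.169), and a dim further one differed by -0.07 (adjusted p = 0.800). The median of the 3 probe sets gave -0.47 (adjusted p = 0.136).

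Gnas encodes the widely expressed stimulatory alpha subunit, which acts on adenylyl cyclase as Golf does. Its brightest probe set read 12.66, 12.76, 12.84 and 12.46 in null, 12.69 in the heterozygote and 12.42, 12.28 and 12.31 in wild type arrays. The groups did not overlap, yet the difference of 0.34 ± 0.13 (SE) did not pass (limma adjusted p = 0.202). The other 4 Gnas probe sets were dim and differed by -0.43 to 0.06, so the probe sets of this imprinted gene with several transcripts disagreed in sign.

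**Figure D2:**
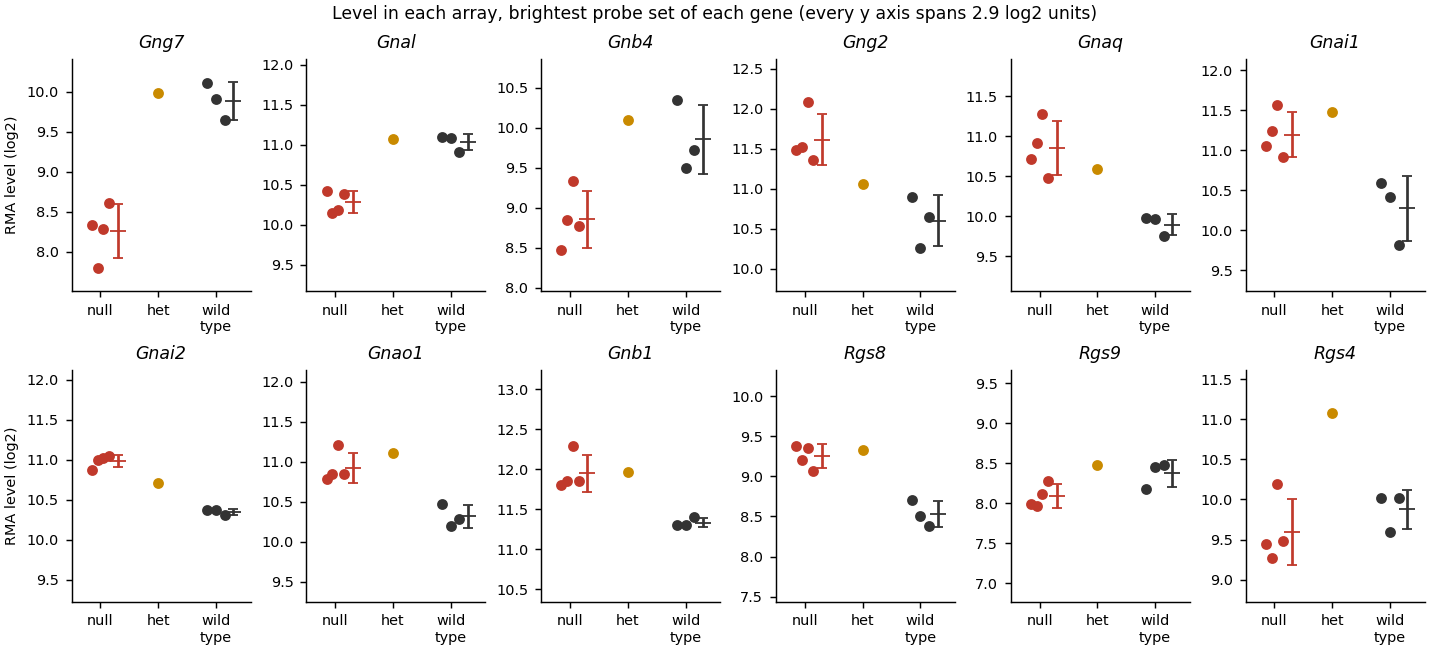
Log2 level of 12 genes on their brightest probe set, with null arrays in red, the heterozygote (het) in yellow and wild type arrays in black; bars give the mean and SD of groups with more than 1 array, and every y axis covers the same span. On Gng7 and Gnal the heterozygote stands with wild type arrays, and on Rgs8, Gnai1, Gnao1 and Gnb1 with null arrays.

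Of the inhibitory Gi/o subunits, Gnai2 rose on its brightest probe set, Gnai1 on its dimmest, and the other 3 genes did not pass. Gnai2 read 10.87, 10.99, 11.02 and 11.04 in null, 10.70 in the heterozygote and 10.37, 10.37 and 10.30 in wild type arrays. The null arrays were tightly grouped above the wild type arrays, and the heterozygote lay between the groups. The difference was 0.64 ± 0.11 (SE), 1.55-fold higher in null striatum (limma adjusted p = 0.0206), and the second probe set differed by 0.61 without passing (adjusted p = 0.0816). The adjusted p of the first was 0.0829 after quantile normalization and 0.0786 with the replicate number as a block. It was 0.0698, 0.0898, 0.0574 and 0.0766 without wild type 2, wild type 3, null 1 and null 2, in that order.

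Gnai1 had 3 probe sets, all without overlap between the groups. The one that passed read 7.67, 7.65, 7.48 and 7.51 in null, 7.57 in the heterozygote and 6.95, 6.37 and 7.02 in wild type arrays. It differed by 0.80 ± 0.17 (SE), 1.74-fold higher (limma adjusted p = 0.0413), and lost the call without wild type 2 (0.0977), wild type 3 (0.0730), null 1 (0.112), null 2 (0.130) or null 3 (0.0682), with the replicate block (0.0510), after median centring (0.0582) and after quantile normalization (0.0560). The brightest read 11.05, 11.24, 11.56 and 10.92 in null, 11.48 in the heterozygote and 10.59, 10.42 and 9.81 in wild type arrays. Its difference of 0.92 ± 0.21 (SE) did not pass (limma adjusted p = 0.0577). It passed in some alternatives, among them without wild type 1 (0.0367), without null 4 (0.0380), with the replicate block (0.0474) and with array weights (0.0113). The remaining one differed by 1.16 (adjusted p = 0.130). On all 3 the heterozygote stood within the null range.

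Gnao1, the abundant Go alpha subunit of neurons, read 10.79, 10.85, 11.21 and 10.84 in null, 11.11 in the heterozygote and 10.48, 10.19 and 10.29 in wild type arrays. The groups were apart, and the difference of 0.60 ± 0.14 (SE) had a limma adjusted p of 0.0628, or 0.0454 without wild type 1 and 0.0485 when adjusted over 1 probe set per gene. Its other 2 probe sets differed by 0.05 and -0.09. Gnai3 differed by 0.54 ± 0.30 (SE, adjusted p = 0.334) with overlapping groups. Gnaz, a pertussis toxin-insensitive member, differed by -0.10 and 0.01 on its 2 probe sets.

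Gnaq, which couples receptors to phospholipase C beta, rose on 5 of its 7 probe sets. The brightest read 10.71, 10.92, 11.28 and 10.48 in null, 10.59 in the heterozygote and 9.97, 9.96 and 9.74 in wild type arrays. All null arrays exceeded all wild type arrays, and the heterozygote was within the null range. The difference was 0.95 ± 0.18 (SE), 1.94-fold higher in null striatum (limma adjusted p = 0.0298). The other 4 called probe sets were 2.09-fold, 2.18-fold, 2.26-fold and 2.30-fold higher (adjusted p = 0.0212, 0.0472, 0.0407 and 0.0235). The last carries Affymetrix's suffix for probes that can match more than 1 transcript. The brightest probe sets of Gnai1, Gnas, Gna13, Gng4 and Rgs2 carry that suffix too. The remaining 2 Gnaq probe sets differed by 0.00 and 0.24 (adjusted p = 0.998 and 0.313). For the brightest, the call did not survive leaving out wild type 2 (0.0958), wild type 3 (0.133), null 1 (0.0668) or null 2 (0.0977). For the next brightest, which kept the call under the most alternatives of the 5, it ended without wild type 2 (0.0952), wild type 3 (0.104) or null 2 (0.0660). The probe sets share the same 7 animals and are no replicates of each other.

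The other Gq-type genes were not called. Gna11, the close relative of Gnaq, differed by -0.38 ± 0.12 (SE) on its brightest probe set, with null arrays from 10.14 to 10.27 and wild type arrays from 10.41 to 10.72 (limma adjusted p = 0.147). Its other probe set, at a mean level of 9.96, differed by -0.05 with overlapping groups (adjusted p = 0.874). Gna14 differed by -0.32 and Gna15, a subunit of blood cells, by -0.27, both on probe sets below the array medians. The G12/13 genes Gna12 and Gna13 differed by 0.31 and 0.19 on their brightest probe sets and by -0.44 to 0.68 over all 12, of which 0 passed (1 was higher and 1 lower at an unadjusted p under 0.05).

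Of the 10 probe sets of the beta subunits 0 passed in limma, while 2 higher and 5 lower had an unadjusted p under 0.05. Gnb4, a beta subunit of less well-known role, had the largest negative difference after Gng7. It read 8.48, 8.85, 9.33 and 8.78 in null, 10.10 in the heterozygote and 10.34, 9.50 and 9.72 in wild type arrays. On all 3 Gnb4 probe sets the null arrays lay below the wild type arrays, and the heterozygote was above the wild type mean. The differences were -0.996 ± 0.24, -0.72 ± 0.18 and -0.48 ± 0.12 (SE; limma adjusted p = 0.0647, 0.0819 and 0.0728). The first passed in some alternatives, among them without null 3 (0.0415), with array SD as a covariate (0.0407), with array weights (0.0112), after quantile normalization (0.0133) and when adjusted over 1 probe set per gene (0.0497).

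Gnb1, a beta subunit used by most G proteins, read 11.80, 11.85, 12.29 and 11.85 in null, 11.96 in the heterozygote and 11.30, 11.30 and 11.40 in wild type arrays. The groups did not overlap, with a difference of 0.62 ± 0.14 (SE, limma adjusted p = 0.0601, or 0.0465 over 1 probe set per gene). Its second probe set differed by 0.33 and its dim last one by -0.43. Gnb5, the obligate partner of RGS9 and its relatives, read 8.46, 8.67, 9.78 and 8.22 in null, 9.81 in the heterozygote and 8.74, 8.79 and 8.47 in wild type arrays. Null 3 stood well above the other null arrays, and the difference was 0.11 ± 0.32 (SE, adjusted p = 0.837), or -0.22 without null 3. Gnb2 and Gnb3 differed by -0.10 each.

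Gng2, a gamma subunit of brain, rose where Gng7 fell. Its brightest probe set read 11.49, 11.52, 12.08 and 11.36 in null, 11.06 in the heterozygote and 10.90, 10.26 and 10.65 in wild type arrays. The groups did not overlap, and the heterozygote lay between them. The difference was 1.01 ± 0.21 (SE), 2.02-fold higher in null striatum (limma adjusted p = 0.0366). A second called probe set was 2.33-fold higher (adjusted p = 0.0192), and the other 2 differed by 0.81 and 0.43 (adjusted p = 0.0800 and 0.303). On those 2 the heterozygote read 9.95 and 9.56, below the wild type means of 10.09 and 9.65. The call of the brightest ended without wild type 2 (0.143), wild type 3 (0.125), null 1 (0.0808), null 2 (0.0961) or null 3 (0.0523), and the median of the 4 probe sets gave 0.62 (adjusted p = 0.115).

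Of the other 9 gamma subunit genes, 0 passed on the brightest probe set and 2 were lower at an unadjusted p under 0.05. Gng13, a gamma subunit of taste and retinal cells, read 6.70, 6.73, 6.35 and 6.86 in null, 6.59 in the heterozygote and 7.10, 7.62 and 7.16 in wild type arrays. Its groups were apart, with a difference of -0.64 ± 0.17 (SE, limma adjusted p = 0.0930). The other Gng13 probe set differed by -0.27 with overlapping groups (adjusted p = 0.306). Both had mean levels below 7, a range in which 21403 probe sets of the array were lower in null and 7929 higher. Gngt1, the rod photoreceptor subunit, differed by -0.51 (adjusted p = 0.185). The remaining 7 genes, Gng3, Gng4, Gng8, Gng10, Gng11, Gng12 and Gngt2, differed by -0.22 to 0.28. A second probe set of Gng12 differed by 0.92 (adjusted p = 0.139), against 0.03 on the brighter one.

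Promoter windows are shown for Gng7 and Gng2, gamma subunit genes that changed in opposite directions, and for Rgs8, described next, so that the letters near the start sites can be compared. RefSeq windows of 300 bases around a start site (build GRCm38.p6) were found for 36 of the 48 members and for 5 of the 7 genes called. They were searched for TGACCA on both strands, so that on the printed strand the match may read as its reverse complement. It is a sequence that the Bcl11b paralogue Bcl11a is known to bind at globin genes. Capitals mark the matches. The downstream start of Gng7 (chr10:81001316-81001615, minus strand) holds 1 match, and the upstream start (chr10:81014876-81015175, minus strand) holds 0. The Gng2 window (chr14:19976644-19976943, minus strand) holds 2 matches, and the first of 3 Rgs8 windows (chr1:153652787-153653086, plus strand) holds 1. The other Rgs8 windows, which are not printed, hold 0. Among the called genes with windows, those shown are the ones with a match.
Gng7, downstream start: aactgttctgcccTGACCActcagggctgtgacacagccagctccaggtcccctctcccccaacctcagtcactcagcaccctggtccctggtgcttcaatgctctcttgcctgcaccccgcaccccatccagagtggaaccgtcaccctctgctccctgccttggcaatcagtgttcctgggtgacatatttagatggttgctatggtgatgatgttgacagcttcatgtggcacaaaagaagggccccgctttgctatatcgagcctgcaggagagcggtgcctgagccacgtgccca
Gng7, upstream start: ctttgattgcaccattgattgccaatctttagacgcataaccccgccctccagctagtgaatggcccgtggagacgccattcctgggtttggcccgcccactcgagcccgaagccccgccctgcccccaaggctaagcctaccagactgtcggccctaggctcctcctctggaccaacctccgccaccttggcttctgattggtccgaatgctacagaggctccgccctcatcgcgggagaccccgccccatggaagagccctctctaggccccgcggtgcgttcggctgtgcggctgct
Gng2: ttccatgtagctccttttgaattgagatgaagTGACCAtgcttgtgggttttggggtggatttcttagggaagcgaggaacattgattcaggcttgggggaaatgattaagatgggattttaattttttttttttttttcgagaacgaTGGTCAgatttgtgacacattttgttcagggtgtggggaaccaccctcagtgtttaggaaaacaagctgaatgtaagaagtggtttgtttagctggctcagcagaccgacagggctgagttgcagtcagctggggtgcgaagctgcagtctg
Rgs8: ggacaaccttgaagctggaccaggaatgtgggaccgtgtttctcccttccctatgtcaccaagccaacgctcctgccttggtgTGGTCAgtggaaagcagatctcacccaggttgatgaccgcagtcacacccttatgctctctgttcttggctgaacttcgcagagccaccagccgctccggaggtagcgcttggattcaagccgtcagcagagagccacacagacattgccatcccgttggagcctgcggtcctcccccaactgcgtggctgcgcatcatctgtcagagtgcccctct
Of all 32851 windows 13.6% hold the letters, as do 9 of the 49 windows of members. The windows of Gnai1 and Gnaq hold 0 matches and are rich in CpG, with 53 and 39 CpG dinucleotides. The median is 7 over all windows and 21 over the windows of members. A match is a stretch of letters only, and the arrays did not measure binding.

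Among the RGS genes Rgs8 alone passed, on its single probe set. Rgs8 is a small regulator of the R4 family, which acts on Gi and Gq subunits. It read 9.38, 9.20, 9.36 and 9.07 in null, 9.34 in the heterozygote and 8.70, 8.51 and 8.38 in wild type arrays. The groups did not overlap, and the heterozygote stood among the null arrays. The difference was 0.72 ± 0.13 (SE), 1.65-fold higher in null striatum (limma adjusted p = 0.0263). Without wild type 2, wild type 3, null 1, null 2 or null 3 the adjusted p was 0.0987, 0.119, 0.0890, 0.0805 or 0.0599, and with an intensity trend and robust prior it was 0.0517.

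The RGS genes best known from striatum did not pass. Rgs9, whose long form is enriched in adult striatum, read 7.98, 7.96, 8.12 and 8.28 in null, 8.48 in the heterozygote and 8.18, 8.45 and 8.48 in wild type arrays. Its groups overlapped, with a difference of -0.28 ± 0.14 (SE, limma adjusted p = 0.274). Rgs4, an R4 regulator abundant in cortex and striatum, read 9.44, 9.26, 10.19 and 9.49 in null, 11.08 in the heterozygote and 10.02, 9.59 and 10.02 in wild type arrays. The heterozygote exceeded every other array on each of its 3 probe sets, and the null and wild type arrays overlapped (difference -0.28 ± 0.22, SE, adjusted p = 0.457). Rgs2, an activity-induced regulator that prefers Gq, read 11.52, 11.48, 11.25 and 11.19 in null, 12.26 in the heterozygote and 11.40, 11.71 and 12.17 in wild type arrays. Its difference was -0.40 ± 0.18 (SE, adjusted p = 0.262), and all 4 of its probe sets were negative, from -0.40 to -0.27.

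Other RGS genes stood closer to the threshold on single probe sets. Rgs6, of the same R7 family as Rgs9, differed by -0.62 ± 0.14 (SE) on a dim probe set (limma adjusted p = 0.0534) and by -0.45 on the brighter one (adjusted p = 0.136), both without overlap, and the heterozygote was above all wild type arrays on both. The dim one passed in some alternatives, among them with an intensity trend and robust prior (0.0412) and without wild type 1 (0.0499). All 7 probe sets of the R7 genes Rgs6, Rgs7, Rgs9 and Rgs11 were negative, from -0.62 to -0.01, of which 0 passed in the main fit. Over all probe sets, too, negative differences outnumbered positive ones, 27907 to 17130. Rgs12, of the R12 family, read 8.59, 8.81, 9.10 and 8.75 in null, 8.83 in the heterozygote and 8.40, 8.12 and 8.18 in wild type arrays, a difference of 0.58 ± 0.15 (SE, adjusted p = 0.0777). Its other 2 probe sets differed by 0.15 and 0.00. Rgs3 differed by 0.54 on 1 probe set (adjusted p = 0.0760) and 0.39 on the brightest (adjusted p = 0.147).

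Rgs5, a marker of pericytes, read 9.16, 8.87, 9.66 and 9.35 in null, 9.43 in the heterozygote and 8.69, 8.54 and 8.80 in wild type arrays. The groups did not overlap, with a difference of 0.58 ± 0.18 (SE, limma adjusted p = 0.140). Of 11 measured pericyte and smooth muscle markers 0 passed, 3 were higher and 0 lower at an unadjusted p under 0.05. The markers differed in both directions, with a median difference of -0.0082. Summed over that list, levels were 74.7 to 75.8 in null, 75.2 in the heterozygote and 72.8 to 74.8 in wild type arrays. Rgs10, abundant in microglia, differed by 0.35 ± 0.12 (SE, adjusted p = 0.172). Of 10 measured microglial markers 0 passed and 6 were higher at an unadjusted p under 0.05, with sums of 71.2 to 74.8 in null, 69.0 in the heterozygote and 69.3 to 70.1 in wild type arrays. Of 9 measured endothelial markers 0 passed and 3 were higher at an unadjusted p under 0.05, with sums of 61.9 to 66.9 in null, 65.6 in the heterozygote and 60.4 to 62.0 in wild type arrays. Astrocyte and radial glia markers, of which 2 of 10 rose, summed to 87.7 to 91.0 in null, 90.4 in the heterozygote and 84.7 to 87.8 in wild type arrays. Those 2, Sox2 and Slc1a2, both missed the threshold without wild type 2 (adjusted p = 0.136 and 0.159), wild type 3 (0.175 and 0.186), null 1 (0.119 and 0.0733), null 2 (0.141 and 0.143) or null 3 (0.0966 and 0.0855). Interneuron markers, of which 2 of 10 rose, summed to 78.7 to 81.0 in null, 81.8 in the heterozygote and 74.5 to 78.4 in wild type arrays. Of those 2, Lhx6 passed only without null 4 among the fits that leave out 1 array (0.0704 to 0.182 in the other 6), and Calb2 did not pass without wild type 2 (0.0719) or null 2 (0.0537). At an unadjusted p under 0.05, 4 interneuron markers were higher and 1 was lower. The lower one, Npy, differed by -0.65 with null arrays below wild type arrays, and the median difference of the list was -0.0024. Cortical projection neuron markers, of which 0 of 8 passed, summed to 41.4 to 42.8 in null, 40.2 in the heterozygote and 43.0 to 43.1 in wild type arrays. At an unadjusted p under 0.05, 0 of them were higher and 0 lower. All but Emx1 and Neurod2 had mean levels below 7. The median difference of the list was -0.16, against -0.12 over all probe sets below that level. No marker is at 0 on this scale, and the part of these cells in the member differences was not tested. Of the blood cell genes among the RGS members, Rgs1 and Rgs18 differed by -0.22 and -0.29 and Rgs13 by 0.13, all at levels below the array medians. The other RGS genes, Rgs7, Rgs11, Rgs14, Rgs16, Rgs17, Rgs19 and Rgs20, differed by -0.43 to 0.35 on their brightest probe set and did not pass.

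The heterozygote did not follow 1 pattern. On the 2 called probe sets that fell, it stood within 0.25 of the distance between the group means from the wild type mean, while on 9 of the 10 that rose it lay past the midpoint toward the null mean, and on 6 of these 10 within the null range. With this array counted among the controls, 0 member probe sets rose and the same Gng7 and Gnal probe sets fell in limma, and 17 were higher and 17 lower at an unadjusted p under 0.05. The heterozygote array also had the largest SD over probe sets. With array SD as a covariate in the 7-array fit, 0 member probe sets rose and 3 fell, which were that of Gng7 and the 2 brighter ones of Gnb4, and 22 were higher at an unadjusted p under 0.05. The differences of Gnaq and Gng2 on their brightest probe sets were then 0.67 and 0.66, against 0.95 and 1.01, while those of Gnai2 and Gng7 were 0.63 and -1.52, against 0.64 and -1.63. The ranges of array SD in the null and wild type groups overlap only in part.

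**Figure D3:**
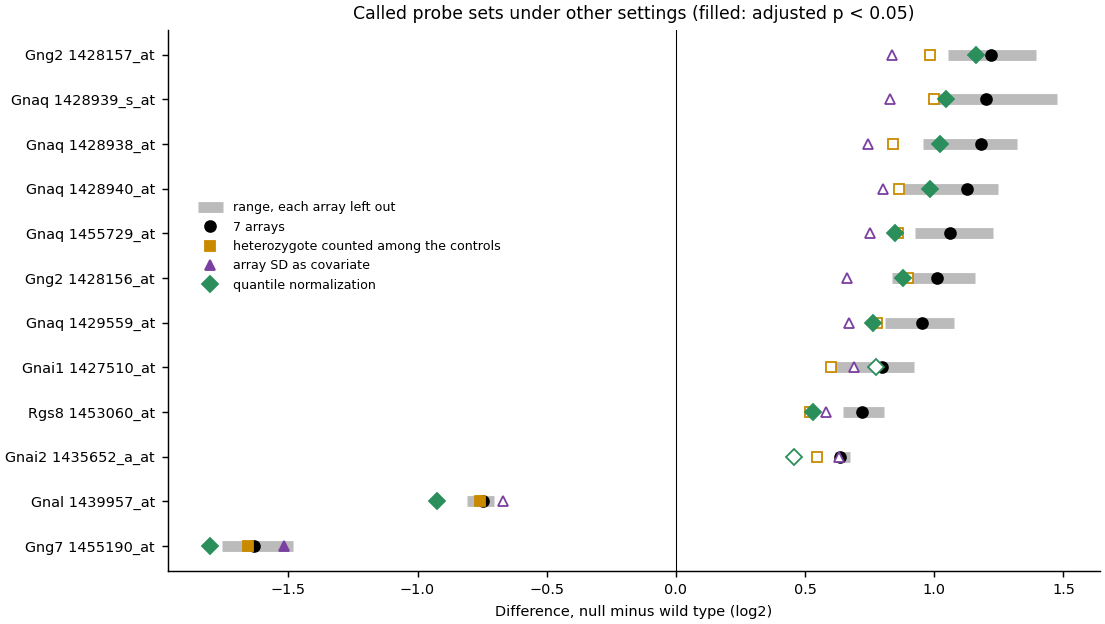
Log2 difference, null minus wild type, of the 12 called member probe sets in the 7-array fit (black), with the heterozygote among the controls (squares), with array SD as a covariate (triangles) and after quantile normalization (diamonds); grey bars span the fits that each leave out 1 array, and open symbols did not pass. All differences keep their sign, Gng7 is filled in every setting drawn, and the 10 rises are open in the fits drawn as squares and triangles.

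Differences also went with signal level, in the members as on the whole array. Of the 31 member probe sets with a mean level of at least 9, the median difference was 0.28, with 4 higher and 1 lower, and over all 4764 such probe sets it was 0.16, with 213 higher and 40 lower. Of the 50 members below a level of 7, the median was -0.12 with 0 called in limma (2 higher and 10 lower at an unadjusted p under 0.05), and it was -0.12 over all 29332 such probe sets, of which 1540 were higher and 2767 lower at an unadjusted p under 0.05. Dim members thus leaned lower and bright ones higher, in the same direction as all probe sets, while Gng7, Gnal and Gnb4 lay below 0 on their brightest probe sets at levels where the medians of all probe sets were at or above 0.14.

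**Figure D4:**
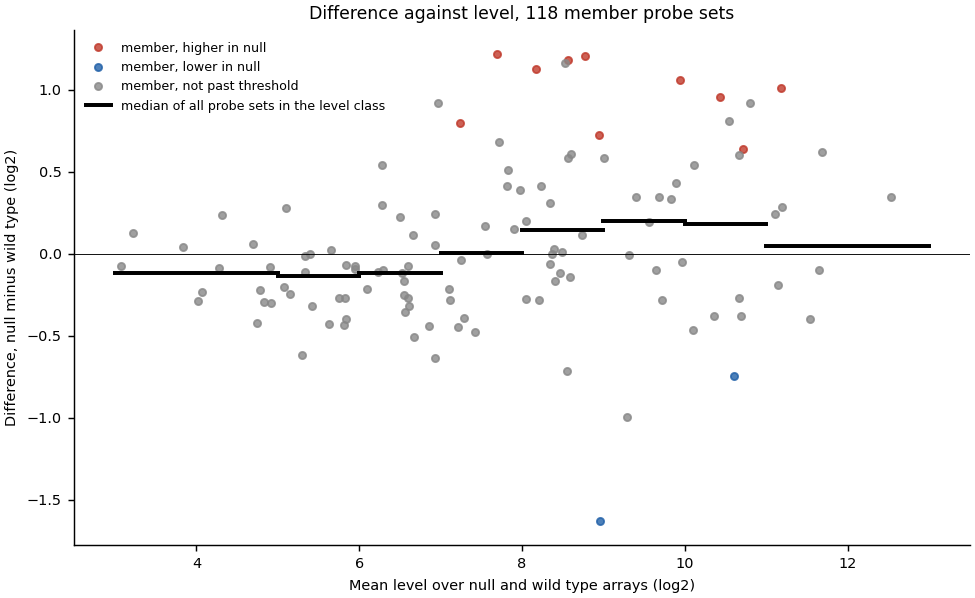
Difference, null minus wild type, against mean log2 level for the 118 member probe sets, with called ones in colour; black steps are the median of all probe sets in each level class. The steps run from below 0 at low levels to 0.20 between 9 and 10, and Gng7 lies alone at -1.63.

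Genes that act before and after the G proteins were taken from 4 lists, by the brightest probe set, on which 2.38% of all genes rose and 0.676% fell. Of 23 measured effector genes 1 rose, 1 fell and 21 did not pass. Adcy1, a calcium-stimulated adenylyl cyclase, read 10.18, 9.66, 10.52 and 10.30 in null, 11.59 in the heterozygote and 11.33, 11.17 and 10.85 in wild type arrays, 1.94-fold lower in null striatum (limma adjusted p = 0.0463). Plcb4, a phospholipase C beta activated by Gq subunits, was 1.71-fold higher (adjusted p = 0.0438). Adcy5, the main striatal cyclase and effector of Golf, averaged 9.10 in null and 8.80 in wild type arrays (adjusted p = 0.336). Of 27 measured receptors of striatal neurons 1 rose, 4 fell and 22 did not pass. Gpr6, a Gs-coupled orphan receptor, was 4.48-fold lower, Drd1, the Golf-coupled D1 dopamine receptor, 1.91-fold lower, Chrm1, a Gq-coupled muscarinic receptor, 1.79-fold lower, and Htr1b, a Gi-coupled serotonin receptor, 1.60-fold lower (adjusted p = 0.0448, 0.0438, 0.0169 and 0.0209). Gpr6 read 9.08, 7.12 and 6.84 in the wild type arrays. Its difference of -2.16 became -1.46 without wild type 1. Grm3, a Gi-coupled glutamate receptor, was 1.89-fold higher (adjusted p = 0.00858), with the heterozygote at 10.76 above the null mean of 10.48. Of these 7 genes, only Grm3 kept its call without each array but 1, with an adjusted p of 0.0510 without wild type 3. Without wild type 2 the adjusted p of Adcy1, Plcb4, Drd1, Gpr6, Chrm1 and Htr1b was 0.163, 0.126, 0.145, 0.0853, 0.0713 and 0.0546, and without null 2 it was 0.0886, 0.106, 0.134, 0.131, 0.0608 and 0.0807. All 6 also missed the threshold without null 1, as did 5 of them without wild type 3 (Drd1 passed), Adcy1, Plcb4 and Drd1 without wild type 1, Drd1 and Gpr6 without null 3, and Plcb4 without null 4.

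Receptor kinases, arrestins and accessory proteins did not pass. Of 7 receptor kinase and arrestin genes 0 passed in limma and 1 was higher at an unadjusted p under 0.05, with Arrb2 at 0.39 and Grk3 at 0.34 the largest. Of 22 accessory genes 0 passed, with 2 higher and 3 lower at an unadjusted p under 0.05. That list also holds Gnat1 and Gnat2, alpha subunit genes outside the symbols that define the members, which differed by -0.13 and -0.03. Pdcl, a phosducin-like chaperone of beta-gamma pairs, differed by 1.13 ± 0.32 (SE, limma adjusted p = 0.109) with overlapping groups. Rgs7bp, the palmitoylated protein that anchors R7 RGS proteins at the membrane, averaged 7.55 ± 0.17 (SD, n = 4) in null and 8.20 ± 0.33 (SD, n = 3) in wild type arrays, which did not overlap (difference -0.66 ± 0.17, SE, adjusted p = 0.0870). The median difference was -0.10 over the effectors, -0.09 over the receptors, 0.12 over the receptor kinases and arrestins and -0.13 over the accessory genes, against -0.08 over the brightest probe sets of all genes.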

How the data were processed

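The authors ran RMA in Bioconductor and deposited 1 log2 value per probe set and array, per the design text and the submitters' processing notes. RMA corrects background, normalizes arrays by quantiles and summarises probes by median polish. Its version, and which arrays were normalized together, are not stated. Array medians lay between 6.21 and 6.35.

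The 4 null and 3 wild type arrays were compared with limma 3.58.1 in R 4.3.3 (lmFit and eBayes, no covariate), adjusted over all 45037 probe sets. The heterozygote was left out of that fit. Of the probe sets, 34945 carry 1 symbol, 932 several and 9160 none. Where 1 value per gene was needed, the probe set of highest mean over the 7 arrays was taken. Replicates are separate animals. The procedure was tested on simulated data. Figures used matplotlib 3.10.9 in Python 3.11.15.

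Members were picked by symbol and by no measured value, but that rule, the gene lists and the alternatives were set with earlier results of these data known. Named members are the 7 genes called, a list chosen for its role in the striatal pathway, which adds 7 more, and the 4 others of largest difference, 18 genes in all, and further members are named after their values were seen. From each list of other pathway genes the called ones or the 2 of largest difference are named. Adcy5 was added for its role. Alternatives covered the test, adjustment, level filter, normalization, heterozygote, replicate block, array SD and each array left out.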

Additional observations from a re-analysis of the deposited data

Results flagged for a closer look

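Among the 56 probe sets of the named genes, 3 had 1 null array set apart from the other 3 null arrays by most of the group's range, and chance gives about 1 such group in 20. On the brightest Gnao1 probe set null 3 read 11.21, against 10.79 to 10.85 in the other null arrays. On the brightest Gnb1 probe set null 3 read 12.29, against 11.80 to 11.85. On the dimmest Rgs2 probe set null 2 read 6.95, against 7.16 to 7.19. Without null 3 the limma adjusted p was 0.110 for Gnao1 and 0.0865 for Gnb1, which did not pass with all arrays either.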

How the results depend on the processing

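The main counts were 10 member probe sets higher and 2 lower in null striatum. Higher members numbered 19 with array weights, 5 with arrays centred on their median, 3 without wild type 1 and null 2 together, and 0 with the heterozygote among the controls or with array SD as a covariate. Lower members numbered 11 with array weights, 5 with SAM-type scores beyond 2, 5 after quantile normalization and 1 without wild type 1 and null 2. With single arrays left out, higher members ranged from 0 to 14 and lower members from 1 to 3. Leaving out arrays leaves fewer animals in the fit; the other causes were not tested. With the replicate number as a block, 9 members were higher and 2 lower, 8 and 2 of them shared with the main fit. The labels do not say whether same-numbered animals are pairs. Same-numbered null and wild type arrays had deviations correlated at -0.25, -0.31 and -0.17, against -0.42 to 0.37 for other-numbered arrays. With so few arrays these correlations cannot show whether animals were paired. The block ended the calls of Gnai2 (adjusted p = 0.0786) and of the dimmest Gnai1 probe set (0.0510), and called the brightest Gnai1 probe set. Across settings the sign changed for Gnb5 alone among the named probe sets, and it had not passed. Gnb5 was -0.020 with array weights, -0.091 after quantile normalization, -0.17 with the heterozygote as a control, -0.36 with the covariate, -0.29 on its other probe set and -0.090 as a median of probe sets, and ranged from -0.22 (without null 3) to 0.30 (without null 4) with single arrays left out. Against the brightest probe set, other probe sets reversed for Gnao1 (-0.092), Gnaq (-0.00071), Gnas (-0.11, -0.43 and -0.076, and -0.27 as a median), Gnb1 (-0.43), Rgs12 (-0.0026) and Rgs5 (-0.084). Of the called probe sets, Gng7 alone passed under all alternatives run. Over all probe sets, centring gave 548 higher and 124 lower calls, quantile normalization 839 and 328 the covariate 189 and 93, the heterozygote as a control 110 and 96 and the replicate block 1696 and 212, against 840 and 204.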
